A study of Mus musculus with 6 samples.

Results

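Collagen chain genes were followed in mouse tibialis anterior (TA) muscle that had received a viral vector for the transcription factor Prox1. The members were all genes whose symbol has the form Col, a number, the letter a and a number, and 41 of the 19057 genes represented on the array met this rule. Each gene was read from its brightest probe by the mean over the 6 arrays. On that probe, 12 members had a mean log2 signal of at least 7, which served as the limit for a signal above background, and 29 stayed under it. The last gene inside the limit was Col8a1, with a mean of 7.0, and the first outside it was Col26a1, with 6.99. Both means rest on the AAV8-Prox1 arrays, since every control array of these genes was under 7. Col6a3, Col12a1, Col20a1 and Col21a1 have no probe of their symbol and were not analysed here.

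Collagens are trimers of alpha chains, wound together in the endoplasmic reticulum and assembled outside the cell. Fibrillar collagens such as types I, III and V form the tension-bearing fibres of muscle connective tissue, whereas collagen IV forms the network of the basement membrane around each fibre and capillary, and collagen VI forms microfilaments between both layers. FACIT collagens (fibril-associated collagens with interrupted triple helices) sit on the surface of fibrils or at tissue borders. In skeletal muscle most collagen is made by fibroblasts, and the force of the fibre passes to tendon through the myotendinous junction.

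The study asked what Prox1 does in a fast muscle that normally holds little of it. All mice were male C57Bl/6J, 3 months old by the labels, and both groups carried an adeno-associated virus of serotype 8: AAV8-Prox1 in 3 TA muscles and AAV8-NLS-mCherry, a red fluorescent protein with a nuclear localization signal, in 3 control TA muscles. By the methods, the control vector went into the contralateral leg, so that the controls also saw injection and virus, but no label ties a muscle to its mouse. The promoter of the vectors, which would set the cells that made Prox1, is not given in the sources used here.

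Total RNA was measured on 1 Illumina Mouse WG-6 v2 array per muscle, and the values are the log2 signals that the authors had quantile-normalized. Every array had a median of 6.61 and between 10667 and 10672 of its 45281 probes at 7 or more. The number of arrays limits the precision: 3 muscles against 3 cannot give an exact permutation p below 0.1, so adjusted p values come from limma over all probes. They measure the spread between these samples, which may in part be technical. The 2 Prox1 probes of the array stayed between 6.42 and 6.62 in all 6 arrays, and where they lie relative to the sequence carried by the vector was not checked here, so they do not check the labels. The fibre markers Acta1, Ckm, Mylpf, Myh4, Des and Tnnt3 were all above background, with a mean log2 signal of 13.24 to 13.51 in AAV8-Prox1 and 13.74 to 13.77 in control muscles. The fast fibre genes Tnnt3 (log2 fold change -1.20), Myh4 (-1.04) and Mylpf (-0.52) were lower and Des was higher (0.60), while Acta1 (0.07) and Ckm (-0.04) did not pass.

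Of the 12 collagen genes above background, 2 were higher with AAV8-Prox1 (Col22a1 and Col8a1), 1 was lower (Col7a1) and 9 did not pass the test. Among all 6734 genes at this level, 12.9% passed upward and 11.3% passed downward. The median log2 fold change of the 12 was 0.11, beside 0.01 for all genes at 7 or more. Of the 12 values 9 were positive, beside 3500 of the 6734. The groups did not overlap in 4 of the 12, Col5a1 being the gene beside the called ones, whereas 43.1% of all genes at this level had groups that did not overlap. With 12 genes, none of these counts stands clear of the background shares. Col8a1 reached the limit only through its AAV8-Prox1 arrays, so its place in these counts depends on its being higher there. At a limit of 7.5, 10 genes remained, with 1 higher, 1 lower and a median log2 fold change of 0.04.

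**Figure D1:**
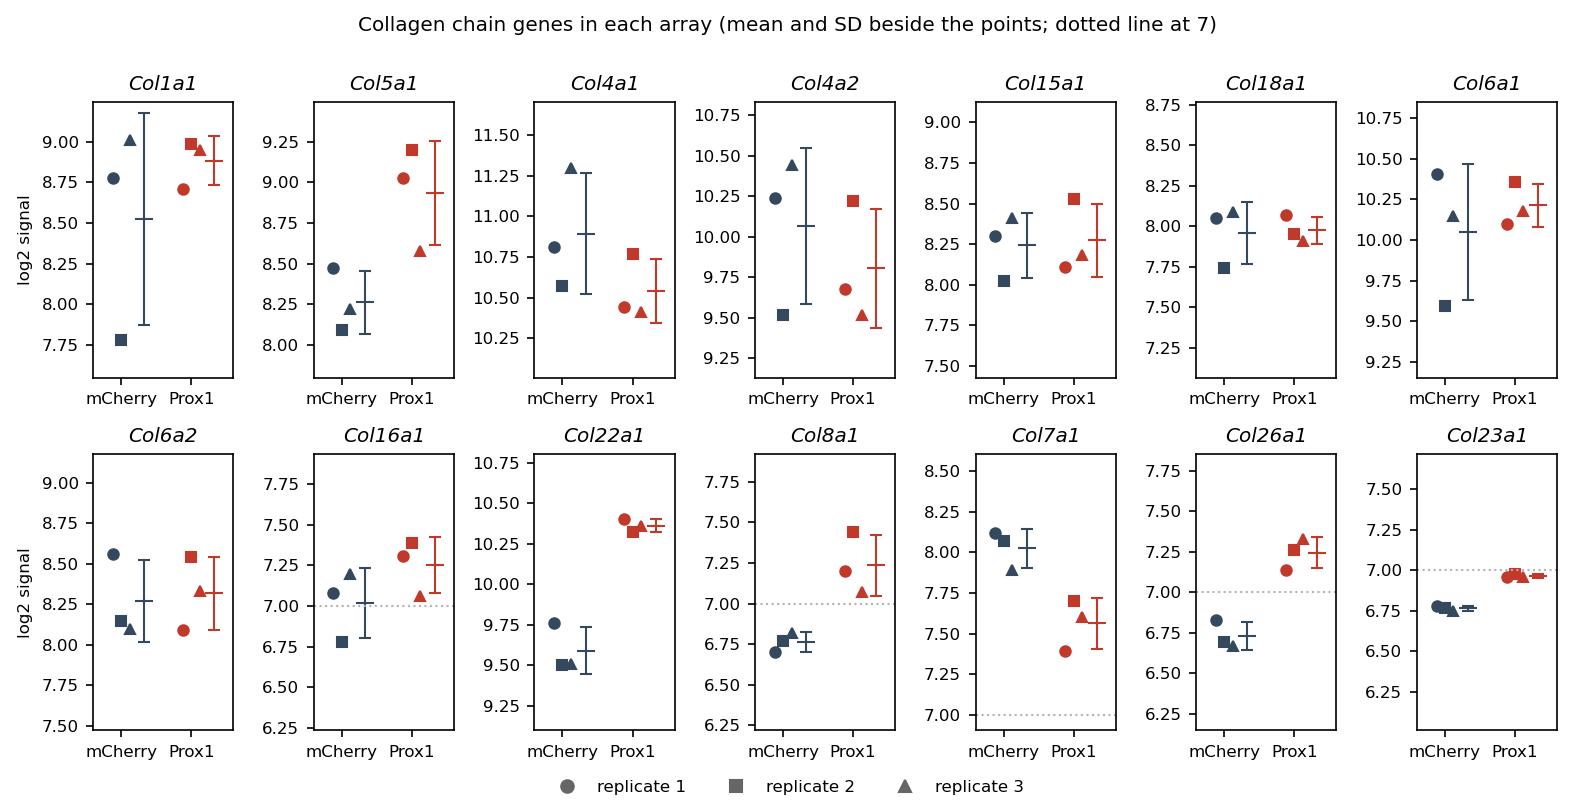
Log2 signal of the 12 collagen genes above background, and of Col26a1 and Col23a1, in each array, by group. Symbols give the replicate number, the bars beside them the mean and SD of 3 arrays, and the dotted line the limit of 7; each panel has its own range. Col22a1 was at 10.32 to 10.40 in AAV8-Prox1 and 9.50 to 9.76 in control arrays, while the groups of Col4a2 and Col6a1 overlapped.

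Col22a1 encodes the chain of collagen XXII, a FACIT collagen of the myotendinous junction. Its log2 signal was 10.40, 10.32 and 10.36 in AAV8-Prox1 replicates 1 to 3, and 9.76, 9.50 and 9.51 in control replicates 1 to 3. The AAV8-Prox1 arrays had an SD of 0.04 (n = 3) and all lay above the highest control. This was a 1.71-fold higher signal, or a log2 fold change of 0.77 with a standard error of 0.07 and a 95% interval of 0.60 to 0.94 (limma, adjusted p = 0.00108). With each array left out in turn the value stayed between 0.72 and 0.85, and all 6 fits passed. The other Col22a1 probe was at background, with a mean of 6.57, and carried no information on the change.

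Col8a1 encodes a chain of collagen VIII, a short-chain collagen that forms networks in the vessel wall and in the cornea. Its brightest probe gave 7.20, 7.44 and 7.07 in AAV8-Prox1 arrays and 6.70, 6.77 and 6.82 in controls. All AAV8-Prox1 arrays were thus just above the limit and all controls under it, and the signal was at least 1.18-fold higher. The fitted log2 fold change was 0.47 with a standard error of 0.09 (95% interval 0.27 to 0.68, adjusted p = 0.0211). It did not pass without AAV8-Prox1 replicate 1 (adjusted p = 0.0577) or without control replicate 1, 2 or 3 (adjusted p = 0.0678, 0.0591 and 0.055). A further probe of the gene was at background in all arrays, at 6.69, 6.70 and 6.76 against 6.54, 6.64 and 6.45 (adjusted p = 0.13).

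Col7a1 encodes the chain of collagen VII, which builds the anchoring fibrils that hold the epidermis to the dermis. It was the collagen gene above background that fell. The log2 signal was 7.39, 7.70 and 7.60 in AAV8-Prox1 arrays and 8.12, 8.07 and 7.89 in controls, with every AAV8-Prox1 array below the lowest control. The signal was 1.38-fold lower, with a log2 fold change of -0.46 and a standard error of 0.09 (95% interval -0.67 to -0.26, adjusted p = 0.0239). It did not pass without AAV8-Prox1 replicate 3 (adjusted p = 0.0605), control replicate 1 (0.0729) or control replicate 2 (0.0741). The other Col7a1 probe was at background, with a mean of 6.57 and a log2 fold change of -0.01, and carried no information on the change.

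Of the 12 members above background, 10 matched a promoter window in the RefSeq table (build GRCm38.p6). Because Col7a1 and Col8a1 are called genes with such a window, the 250 bases before their starts are shown here, each on the strand of its gene (chr9:108953336-108953585, plus strand, for Col7a1 and chr16:57754738-57754987, minus strand, for Col8a1). Capitals mark matches, on either strand, to the E-box CANNTG, the core GGAAA of sites for NFAT (a transcription factor that calcineurin activates), the GC box GGGCGG and the CCAAT box.
Col7a1: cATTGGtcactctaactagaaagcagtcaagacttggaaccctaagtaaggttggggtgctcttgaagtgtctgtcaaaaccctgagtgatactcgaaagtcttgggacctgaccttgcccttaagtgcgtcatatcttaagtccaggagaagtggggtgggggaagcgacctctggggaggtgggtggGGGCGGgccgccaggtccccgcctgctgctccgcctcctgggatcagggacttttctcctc
Col8a1: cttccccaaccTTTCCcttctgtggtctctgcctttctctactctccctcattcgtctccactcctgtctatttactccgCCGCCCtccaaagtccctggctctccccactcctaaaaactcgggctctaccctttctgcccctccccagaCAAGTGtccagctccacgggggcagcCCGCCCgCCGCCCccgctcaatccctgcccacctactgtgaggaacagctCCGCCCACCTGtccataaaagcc
The Col7a1 window held 1 CCAAT box, on the opposite strand and at its far end, and 1 GC box, with no E-box and no GGAAA. In the Col8a1 window there were 2 E-boxes, 1 GGAAA and 4 GC boxes, and 1 base was shared by a GC box and an E-box. Of all 32851 such windows of the mouse table, 66.2% held an E-box, 55.6% GGAAA, 32.7% a GC box and 33.8% a CCAAT box. The matches describe the letters only, and no factor binding was measured here.

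Among the fibrillar collagens, 2 of 11 genes were above background and neither passed. Col5a1, a chain of collagen V, which starts and thins collagen I fibrils, had the lowest adjusted p among the genes above background that did not pass. It gave 9.03, 9.20 and 8.58 in AAV8-Prox1 arrays and 8.47, 8.09 and 8.22 in controls, so that the groups lay apart by a narrow margin. The log2 fold change was 0.68 with a standard error of 0.16 (95% interval 0.30 to 1.05, adjusted p = 0.0537). AAV8-Prox1 replicate 3 was the lowest of its group, and without it the value was 0.85 with an adjusted p of 0.0104. The other 5 fits with 1 array left out did not pass (log2 fold change 0.55 to 0.78, adjusted p 0.0541 to 0.162), nor did the fit with the replicate number as a block (0.0893) or without both replicates 2 (log2 fold change 0.46, adjusted p = 0.357). The probe passed when dim probes were left out of the fit (0.00714) and when the variance was estimated with a trend and robustly (0.00247).

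Col1a1, the major chain of collagen I, varied more between controls than between groups. It gave 8.71, 8.99 and 8.95 with AAV8-Prox1 and 8.78, 7.78 and 9.01 in controls, where replicate 2 stood alone at the bottom. The log2 fold change was 0.36 with a standard error of 0.28 (95% interval -0.30 to 1.02, adjusted p = 0.673), and it ranged from -0.01, without control replicate 2, to 0.60 with 1 array left out. Col1a2, the partner chain of Col1a1 in collagen I, was under 7 on its probe in all 6 arrays (6.67 to 6.93). Col3a1, the chain of collagen III, was also under 7, at 6.66 to 6.73 against 6.59 to 6.62 (adjusted p = 0.228). These probes were too dim to say whether the main fibrillar collagens of the endomysium moved together.

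Basement membrane collagen IV was read through Col4a1 and Col4a2, the chains of its widespread form, which are transcribed in opposite directions from neighbouring starts. The windows before their starts lie at chr8:11312827-11313076 (minus strand) for Col4a1 and chr8:11312555-11312804 (plus strand) for Col4a2. Col4a1 gave 10.44, 10.77 and 10.41 with AAV8-Prox1 and 10.81, 10.57 and 11.30 in controls, with a log2 fold change of -0.35 and a standard error of 0.18 (95% interval -0.77 to 0.07, adjusted p = 0.430). For Col4a2 the values were 9.68, 10.22 and 9.52 against 10.24, 9.52 and 10.44, a log2 fold change of -0.26 with a standard error of 0.26 (95% interval -0.86 to 0.34, adjusted p = 0.762). Both genes had replicate 2 as the highest AAV8-Prox1 array and as the lowest control array, and in both the groups overlapped. Leaving out both replicates 2 could thus only lower the log2 fold changes of these genes. When both replicates 2 were left out, an alternative chosen after the values were seen, Col4a2 was at -0.74 with an adjusted p of 0.0313, and Col4a1 was at -0.63 and did not pass (adjusted p = 0.173). With 1 array left out, neither passed. Col4a1 then ranged from -0.51, without control replicate 2, to -0.15, without control replicate 3, and Col4a2 from -0.53 to -0.07 without the same arrays. Col4a3, Col4a4, Col4a5 and Col4a6, chains of more restricted collagen IV networks, were all under 7, and none passed.

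Collagen VI, whose genes are mutated in human Bethlem and Ullrich muscle disease, was read through Col6a1 and Col6a2. Col6a1 gave 10.10, 10.36 and 10.18 with AAV8-Prox1 and 10.41, 9.59 and 10.15 in controls, with a log2 fold change of 0.16 and a 95% interval of -0.27 to 0.60 (adjusted p = 0.805). With 1 array left out it ranged from -0.07, without control replicate 2, to 0.34, without control replicate 1. A further Col6a1 probe reached the limit too, with a log2 fold change of 0.01 (95% interval -0.36 to 0.38), from 9.20, 9.60 and 9.21 against 9.66, 9.10 and 9.23. On both probes control replicate 1 was the highest control and control replicate 2 the lowest. Col6a2, at 8.09, 8.54 and 8.33 against 8.56, 8.15 and 8.10, had a log2 fold change of 0.05 (95% interval -0.29 to 0.39, adjusted p = 0.945) and a range of -0.06, without AAV8-Prox1 replicate 2, to 0.19, without control replicate 1. Col6a4, Col6a5 and Col6a6 were under 7.

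The multiplexins Col15a1 and Col18a1, collagens of the basement membrane zone, had the log2 fold changes closest to 0 among the 12 genes above background. Col15a1 gave 8.11, 8.53 and 8.18 with AAV8-Prox1 and 8.30, 8.02 and 8.41 in controls, and its log2 fold change was 0.03 (95% interval -0.27 to 0.33, adjusted p = 0.966). Col18a1, whose product releases the fragment endostatin, was at 8.07, 7.95 and 7.91 against 8.05, 7.74 and 8.09, a log2 fold change of 0.02 (95% interval -0.20 to 0.23, adjusted p = 0.975). The groups of both genes overlapped, and with 1 array left out the values ran from -0.10 to 0.11 and from -0.09 to 0.08. Col16a1, a FACIT collagen beside Col22a1, gave 7.31, 7.39 and 7.06 against 7.08, 6.78 and 7.20, with a log2 fold change of 0.23 (95% interval -0.05 to 0.51, adjusted p = 0.436).

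**Figure D2:**
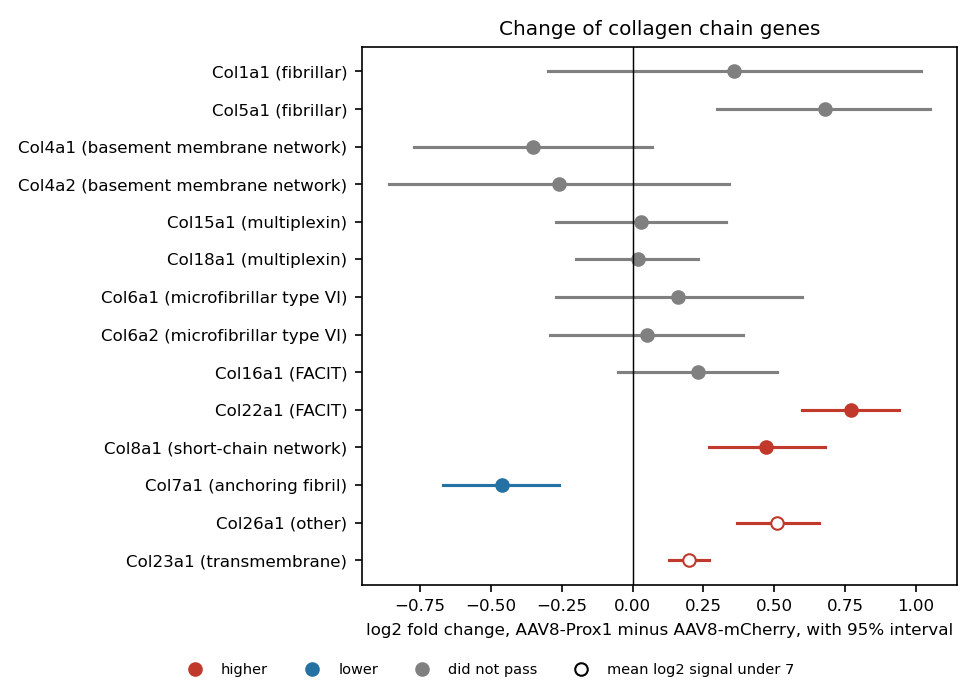
Log2 fold change of AAV8-Prox1 against AAV8-mCherry for the 12 collagen genes above background and the 2 dimmer genes that passed (open symbols), grouped by structural class, with 95% intervals from limma. Col22a1 (0.77) and Col8a1 (0.47) were higher and Col7a1 (-0.46) was lower, while the intervals of Col1a1, both collagen IV chains and both collagen VI chains include 0.

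Under the limit of 7, 2 of 29 collagen genes passed upward and none downward, beside 1.01% and 0.308% of all 12323 genes at this level. Col26a1, an EMI domain collagen first known from mouse testis and ovary, gave 7.14, 7.26 and 7.33 with AAV8-Prox1 and 6.83, 6.69 and 6.67 in controls. Its AAV8-Prox1 arrays were above the limit and its controls under it, so the signal was at least 1.18-fold higher, with a fitted log2 fold change of 0.51 and a standard error of 0.06 (95% interval 0.37 to 0.66, adjusted p = 0.00344). It passed in all 6 fits that left out 1 array, and its other probes were at background with log2 fold changes of -0.01 and 0.00. Col23a1, a transmembrane collagen, was under 7 in every array, at 6.96, 6.98 and 6.96 against 6.78, 6.77 and 6.75 (adjusted p = 0.0106), and no fold can be given between values at this level. Of the 29, 6 had groups that did not overlap, beside 12.5% of all genes under 7. The FACIT gene Col14a1 was among them and did not pass, at 6.78 to 6.79 against 6.6 to 6.69 (adjusted p = 0.0617).

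The collagen genes varied between arrays of 1 group more than the typical gene did. The median SD of the 12 genes above background was 0.21 in controls and 0.18 with AAV8-Prox1, where the median over all genes at 7 or more was 0.10 in both groups. Control replicate 2 was the lowest control in 9 of the 12 genes (75.0%, beside 33.9% of all genes at this level), the exceptions being Col6a2, Col7a1 and Col8a1. AAV8-Prox1 replicate 2 was the highest array of its group in 10 of the 12 (83.3%, beside 31.9%), with Col18a1 and Col22a1 as the exceptions. Measured from the mean of the controls, the median of the 12 genes was 0.13, -0.22 and 0.12 in control replicates 1 to 3, and 0.08, 0.30 and 0.05 in AAV8-Prox1 replicates 1 to 3. The median log2 fold change of the 12 genes was -0.04 without control replicate 2, 0.06 without AAV8-Prox1 replicate 2 and -0.10 without both. Its sign therefore rested on control replicate 2, while Col22a1 passed in each of these fits.

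**Figure D3:**
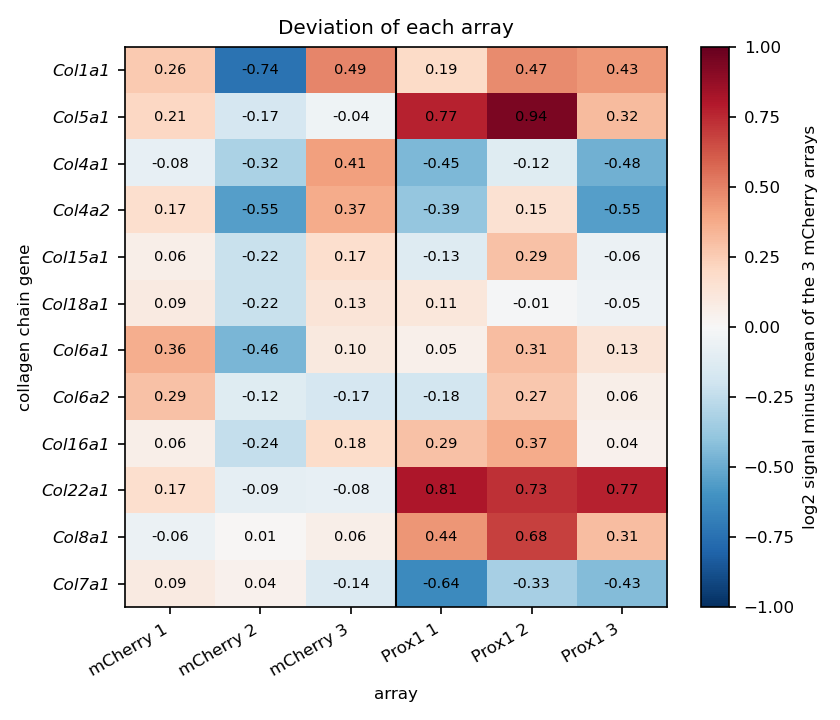
Log2 signal of each collagen gene above background in each array, minus the mean of the 3 control arrays, with red above and blue below it. The column of mCherry 2 is mostly blue (median -0.22) and that of Prox1 2 mostly red (median 0.30), whereas all 3 AAV8-Prox1 columns are red for Col1a1, Col5a1, Col6a1, Col8a1, Col16a1 and Col22a1 and blue for Col4a1 and Col7a1.

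Genes that make, process, bind and break down collagen were read beside the chains. Of 62 such genes measured, 6 were higher and 2 lower with AAV8-Prox1, beside 5.23% and 4.21% of all genes on the array. Bright genes were called more often. Of the 37 at 7 or more, 4 were higher and 2 lower, beside 12.9% and 11.3% of all genes at this level, so these counts do not exceed the background shares. The machinery of synthesis, secretion and propeptide removal held 25 of the 62, and its 17 genes above background had no call. Serpinh1, the chaperone of the collagen triple helix, had a log2 fold change of 0.00 (95% interval -0.26 to 0.26). P4ha2, a subunit of the prolyl hydroxylase that stabilizes the helix, gave 10.11, 10.00 and 9.91 against 9.58, 9.83 and 9.71 (log2 fold change 0.30, adjusted p = 0.0620). Colgalt1, which adds galactose to hydroxylysine, gave 8.42, 8.55 and 8.20 against 8.61, 8.78 and 8.76 (log2 fold change -0.33, adjusted p = 0.0910). The 1 gene that passed, P3h2, a prolyl 3-hydroxylase that acts on collagen IV, had a mean under 7 (log2 fold change 0.31, adjusted p = 0.0288), and it passed in 2 of the 6 fits with 1 array left out. It failed without AAV8-Prox1 replicate 2 or 3 and without control replicate 1 or 2.

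Sparc, a matrix protein that binds collagens I and IV, showed the same low array as many chains, with 10.72, 9.91 and 10.87 in controls and 10.16, 10.67 and 10.52 with AAV8-Prox1. Of 4 cross-linking enzymes none passed. Lox, lysyl oxidase, gave 7.87, 7.69 and 7.18 against 6.98, 6.87 and 7.21, with overlapping groups (log2 fold change 0.56, adjusted p = 0.13). Of 9 collagen receptors, 1 had a positive log2 fold change and 8 a negative one, beside 9525 of all 19057 genes with a negative one. The 3 at 7 or more had no call, and the 9 values lay between -0.15 and 0.18. The positive one, Ddr2, a receptor tyrosine kinase for fibrillar collagen, passed at background level (log2 fold change 0.18, adjusted p = 0.0398). It passed in none of the 6 fits with 1 array left out. Under 7, 1.01% of all genes passed upward. Itga1, Mrc2, Lair1 and Gp6 had all AAV8-Prox1 arrays below the controls and did not pass (Itga1: log2 fold change -0.15, adjusted p = 0.082). Mrc2, Lair1 and Gp6 differed by only -0.08, -0.08 and -0.05, with every array under 7, where no fold can be given. The mean of Itga1 was under 7 as well. Of all genes under 7, 12.5% had groups that did not overlap, in either direction. Whether the receptors exceed this share was not tested.

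Among 12 genes of collagen breakdown, 8 were above background, and of these 1 was higher and 1 lower. At this level 12.9% of all genes passed upward and 11.3% downward, so the counts are near the background shares. Both called genes encode inhibitors of matrix metalloproteinases. Timp4 gave 7.80, 7.73 and 7.45 with AAV8-Prox1 and 8.81, 9.19 and 8.77 in controls, with all AAV8-Prox1 arrays far below the controls. The signal was 2.40-fold lower (log2 fold change -1.26, standard error 0.13, adjusted p = 0.00169). Timp2 moved the other way, at 10.18, 10.03 and 10.08 against 9.70, 9.38 and 9.63, a 1.44-fold higher signal (log2 fold change 0.53, standard error 0.08, adjusted p = 0.0109). Both passed in all 6 fits with 1 array left out. The gelatinase Mmp2, at 10.59, 10.22 and 10.78 against 10.34, 9.84 and 10.29, did not pass (log2 fold change 0.37, adjusted p = 0.355), nor did Timp3, Ctsk or Pepd.

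Of 12 profibrotic signals, 3 were higher and 1 was lower, and all 4 were among the 7 genes of this list at 7 or more, a level at which 12.9% of all genes passed upward and 11.3% downward. Ccn2, connective tissue growth factor, gave 11.08, 10.71 and 10.77 against 10.19, 10.18 and 10.17, a 1.59-fold higher signal (log2 fold change 0.67, standard error 0.09, adjusted p = 0.00488). Tgfb3, a growth factor of the transforming growth factor beta family, was 1.38-fold higher, at 9.08, 9.25 and 9.28 against 8.73, 8.73 and 8.76 (adjusted p = 0.00314). The groups of both genes lay apart, and both passed in all 6 fits with 1 array left out. Tgfb1, a main inducer of collagen synthesis in fibroblasts, gave 7.5, 8.14 and 8.06 against 7.07, 7.16 and 7.17 (log2 fold change 0.77, adjusted p = 0.0268). Its AAV8-Prox1 replicate 1 stood low, and the gene passed in 1 of the 6 fits, the one without that array, where the log2 fold change was 0.97. Pdgfb, a mitogen for mesenchymal cells, was lower at 8.88, 9.04 and 9.24 against 9.41, 9.43 and 9.45 (log2 fold change -0.38, adjusted p = 0.0392) and also passed in 1 of the 6 fits, the one without AAV8-Prox1 replicate 3.

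**Figure D4:**
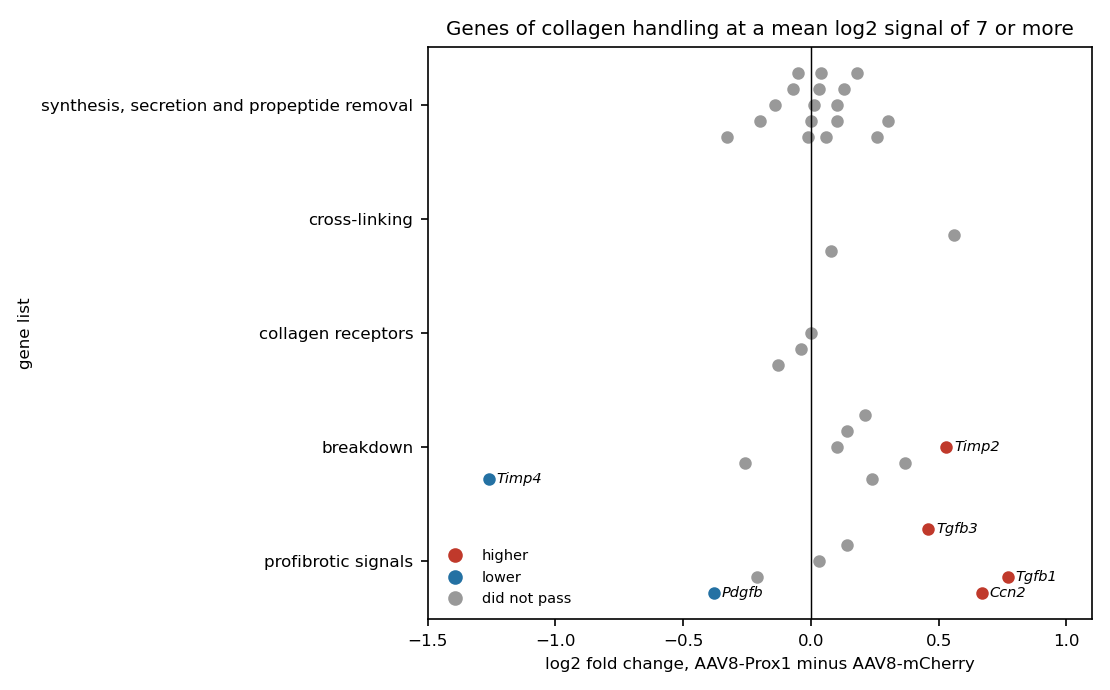
Log2 fold change of AAV8-Prox1 against AAV8-mCherry for the 37 genes of collagen handling at a mean log2 signal of 7 or more, by list, with 1 point per gene and the points spread vertically for legibility. Timp2, Tgfb1, Tgfb3 and Ccn2 were higher, Timp4 and Pdgfb were lower, and the 17 points of the synthesis list are all grey.

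Markers of other cell types of the muscle were read beside these genes. In a whole muscle fewer cells of a type and less RNA per cell cannot be told apart. Among all genes at 7 or more, 12.9% passed upward and 11.3% downward, and 43.1% had groups that did not overlap. With so few markers per list, the calls were not tested against these shares. Of 9 fibroblast markers measured, 7 were above background, and Lum and Mfap5 were higher (log2 fold changes 0.81 and 1.04). The mean over the 7 was 8.60 to 8.84 with AAV8-Prox1 and 8.09 to 8.36 in controls, with Dpt and Cd34 under 7. Cd34 passed upward (log2 fold change 0.20, adjusted p = 0.0287), as did 1.01% of all genes under 7. Of 10 macrophage markers 5 were above background, at a mean of 8.47 to 8.76 against 7.82 to 8.30, with Mrc1 and C1qc higher. Adgre1, Csf1r, Cd14, Cd163 and C1qa were under 7, and of these Cd14 passed upward (log2 fold change 0.21, adjusted p = 0.013). In both lists control replicate 2 had the lowest mean, as it did for the collagen genes. It was also lowest for Schwann cell (7.66, 7.46 and 7.71) and satellite cell markers (8.01, 7.90 and 7.93), but not for fibre or smooth muscle markers. AAV8-Prox1 replicate 2, the highest of its group for most collagen genes, was not the highest for fibroblast (8.84, 8.64 and 8.60) or macrophage markers (8.76, 8.47 and 8.56). Nor was it for tendon markers (7.70, 7.49 and 7.66). Of 9 endothelial markers 8 were above background, at 8.65 to 8.87 against 9.0 to 9.31, with Flt1 and Tie1 lower and Kdr under 7. Smooth muscle and pericyte markers were at 8.56 to 8.61 against 8.69 to 8.81 for 6 of 8, with no call, and Cnn1 and Tagln under 7. For 8 tendon markers, 4 were above background, at 7.49 to 7.70 against 7.28 to 7.94, with control replicate 2 again the lowest; Tnmd, Mkx, Thbs4 and Kera were under 7 and none of the 4 passed. Of these 4, Scx was at 7.57 to 7.74 against 7.80 to 8.11 (adjusted p = 0.169), and the groups of Fmod, Comp and Chad overlapped. The part of fibroblasts, macrophages, vessels and tendon in the collagen values was not tested.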

How the data were processed

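RNA of 3 AAV8-Prox1 and 3 control TA muscles was hybridized to Illumina Mouse WG-6 v2 arrays. The log2 values used are signals as the authors deposited them, after quality control in GenomeStudio and quantile normalization in Chipster. A background correction is not given in the sources used here. The raw signals stand in 12 columns whose names match no sample, and they were not used. Only the 34885 of 45281 probes with exactly 1 symbol stood for genes (18 had several and 10378 had none). Groups came from the sample titles.

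The test was limma 3.58.1 (R 4.3.3, lmFit and eBayes) without a block, and p values of all probes entered the Benjamini-Hochberg adjustment, with a threshold of 0.05. It was first tested on simulated arrays, with far fewer changed probes than were called here. There it recovered 10 of 50 changes at a log2 fold change of 0.3, 22 of 50 at 0.5 and 44 of 50 at 1.0. A gene that did not pass may thus still have changed. Where every array of a group was under 7, the fold was taken against that level as a lower bound. Quantile normalization forces equal distributions on all arrays, so a change common to most genes would not show. Every collagen gene at 7 or more is named, dimmer ones where they pass, and of each other list up to 5 genes with the smallest adjusted p and those the text turns on. Col1a2, Col3a1, Col14a1, Serpinh1, Sparc and Mmp2 were named after their values were seen. The members and all lists were chosen with earlier results of these data known. Alternatives were a replicate block, other probe rules and limits, a filter on dim probes (7 or more in at least 3 arrays), another variance model, a minimum fold change, median centring and leaving out arrays.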

Additional observations from a re-analysis of the deposited data

How the results depend on the processing

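The count of 2 higher collagen genes was 1 with the replicate number as a block, 1 at a limit of 7.5, 1 with a minimum absolute log2 fold change of 0.5, and 1 without both replicates 2, a setting chosen after the data were seen. In each of these the gene was Col22a1. At a limit of 6.8 the count was 4, since Col26a1 and Col23a1 came in. Leaving out 1 array at a time gave 1 to 3 higher genes and 0 to 1 lower genes. The count of 1 lower gene was 0 with the block and 0 with the minimum fold change. Without both replicates 2 it was 1, the gene then being Col4a2, whose value that setting could only lower. The median log2 fold change was -0.04 to 0.23 with 1 array left out and -0.10 without both replicates 2. Of the 62 genes of collagen handling, 8 were called, beside 4 to 6 with 1 array left out, 3 without both replicates 2 and 7 with the block, where the called genes were not all the same.

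Same-numbered arrays did not deviate together: deviations from the group mean correlated at -0.182, 0.051 and -0.123 between them, over 10642 probes, and 1 of 6 arrays correlated best with its own number. With 3 arrays per group, this cannot show whether same-numbered muscles came from the same mouse, and the pairing stays unknown. With the replicate block, Col7a1 (adjusted p = 0.0721), Col8a1 (0.0547) and Col23a1 (0.0501) did not pass, nor did Ddr2 (0.0862) or Pdgfb (0.0560), and P3h2 had 0.0201. The mean of all probes, the probe with the smallest p and median centring changed none of the collagen counts. The filter on dim probes and the variance model with trend and robust estimation each gave 3 higher genes, Col5a1 among them, and 1 lower. Of 181 values of single collagen genes under an alternative, 163 kept their side of the threshold, 14 lost and 4 gained a call, and no call changed sign. Most of these values are of genes without a call, which could not lose one. The 14 losses fell on Col7a1, Col8a1, Col23a1 and Col26a1, the last without both replicates 2 (adjusted p = 0.0785). Col22a1 kept its call in every alternative. Normalizing the raw signals anew was not run, because their columns could not be assigned to samples. Most collagen probes lay near background, where the array understates a change.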
